A study of Homo sapiens with 6 samples.

Results

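Receptor tyrosine kinase genes are described here across 6 RNA-seq libraries of SK-MEL-28, an established human melanoma cell line. The set was fixed by symbol and held 52 genes, all of which were found among the 60504 genes of the count table. The study asked how forced expression of HDAC8, a histone deacetylase, alters transcription in melanoma cells. Of the libraries, 3 came from cells that had received an empty vector (EV) plasmid and served as the control, and 3 came from cells that had received a plasmid expressing HDAC8. The paper's Methods state that both plasmids were introduced by lipid transfection and that the transfected cells were kept in hygromycin, so both groups carried a plasmid and drug selection. The RNA was taken from flasks grown below confluence. Replicates are numbered from 1 to 3 by the labels, and nothing in those labels or the Methods says whether they came from separate transfections, so the p-values below measure only the spread between these libraries. In bulk RNA of this kind, fewer cells that express a gene and less RNA per cell cannot be told apart.

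Receptor tyrosine kinases are single-pass membrane proteins that bind a growth factor, a matrix protein or a cell-surface ligand outside the cell and phosphorylate tyrosines inside it. The phosphorylated tyrosines recruit adaptor proteins such as GRB2, SHC, GAB and IRS proteins, which pass the signal to the RAS-MAPK and PI3K-AKT cascades. CBL ubiquitin ligases, LRIG1, ERRFI1 and tyrosine phosphatases end it. In melanoma these receptors are known for the growth signals they supply when BRAF is inhibited, and KIT and ERBB3 are also known from the melanocyte lineage.

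The transcript of HDAC8 itself did not tell the groups apart. It had 357, 337 and 289 counts in the EV libraries and 417, 308 and 312 in the HDAC8 libraries, with 14.5 ± 2.48 (SD, n = 3) and 14.2 ± 0.882 (SD, n = 3) CPM (counts scaled to the TMM size of each library). The log2 fold change was -0.02 (95% interval -0.31 to 0.26, adjusted p = 0.924 in the quasi-likelihood test of edgeR). Whether reads from the plasmid were counted on this gene is not stated in the sources used here. The groups are therefore called HDAC8 libraries and EV libraries after their labels only, every direction is given as HDAC8 over EV, and the names do not state an HDAC8 level. This gene cannot show whether the labels are on the right libraries, and if they were exchanged every direction here would turn. The libraries held 20850021 to 29822903 counts, and 3 counts corresponded to 0.102 to 0.148 CPM. All 9 melanocyte lineage markers exceeded 3 counts in some library, and they summed to 6588 to 6991 CPM in the EV libraries and 7632 to 8144 CPM in the HDAC8 libraries. PMEL made up most of that sum, at 4144 ± 152 (SD, n = 3) CPM and 5246 ± 272 (SD, n = 3) CPM. The markers past both thresholds went both ways by edgeR. DCT fell (log2 fold change -1.77, adjusted p = 1.13e-09). TYRP1 rose from 5, 12 and 9 counts in the EV libraries to 46, 31 and 19 in the HDAC8 libraries (1.76, adjusted p = 0.0204). It passed the filter on low counts only through the HDAC8 libraries, where it is higher. Its call therefore adds nothing to a reading of these directions. Of the 9 log2 fold changes, 4 were negative. The summed markers of endothelial, blood, fibroblast and epithelial cells stayed between 6.28 and 53.8 CPM per library. PTPRC, CDH5, EPCAM and KRT5 had at most 1 count, whereas LUM had 808 to 1410 counts, CD68 556 to 803, EGFL7 303 to 577 and KRT10 145 to 257. LUM (log2 fold change 0.44, adjusted p = 0.000615) and EGFL7 (0.53, adjusted p = 0.00161) were higher in the HDAC8 libraries on the adjusted p alone by edgeR.

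SK-MEL-28 cells transcribed 30 of the 52 receptor genes at a group mean of at least 1 CPM in either group. Another 14 were found at lower levels, and 8 had at most 3 counts in every library. To compare genes with each other, CPM were divided by the length of the merged exons in kb. The merged exons take in every annotated transcript (4133 bases for MERTK, 11711 for ERBB3 and 13941 for IGF1R). The order between genes rests on these lengths, and which transcripts were used was not tested. On this scale IGF1R, the receptor of insulin-like growth factors, stood highest in the EV libraries with 45.3, 43.8 and 44.1 CPM per kb, against 38.3, 39.4 and 42.5 in the HDAC8 libraries. EPHA3, a receptor of ephrin-A ligands, had 35.1, 34.6 and 35.3 CPM per kb in the EV libraries and 39.2, 39.0 and 40.5 in the HDAC8 libraries. ERBB3, the neuregulin receptor with an impaired kinase domain, followed EPHA3 in the EV libraries with 24.6, 24.4 and 24.5 CPM per kb and rose to 39.0, 40.4 and 40.9 in the HDAC8 libraries. The ranges of these 3 levels were separate from each other in the EV libraries and overlapped in the HDAC8 libraries.

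MERTK, a receptor that binds GAS6 and PROS1 on dying cells, had 15.2, 14.6 and 15.2 CPM per kb in the EV libraries and 29.8, 27.8 and 30.2 in the HDAC8 libraries. DDR1, a collagen receptor, had 13.1, 12.2 and 12.4 CPM per kb in the EV libraries and 10.5, 11.6 and 11.8 in the HDAC8 libraries. These 5 genes were the highest by the mean over all libraries. In the EV libraries alone, EPHB4 ranked 5 and DDR1 6. Together the 5 genes held 57.3% to 57.8% of the receptor signal per kb in the EV libraries and 62.9% to 63.5% in the HDAC8 libraries. The set was chosen from the same levels, so the difference in share is not a separate result. Next by the mean over all libraries, EPHB4, ROR1, LMTK2, PTK7, RYK, TYRO3, ERBB2 and INSR lay between 13.9 and 6.77 CPM per kb on average in the EV libraries. EPHB4 overlapped DDR1 in the EV libraries. TYRO3 overlapped ERBB2 in both groups, and ROR1 overlapped LMTK2 in the EV libraries only. The largest move in the order was that of EPHA4, ranked 17 of the 52 in the EV libraries at 2.39 ± 0.225 (SD, n = 3) CPM per kb and 6 in the HDAC8 libraries at 10.2 ± 0.630 (SD, n = 3). ALK went from rank 23 to 26 and FGFR2 from 36 to 42.

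**Figure D1:**
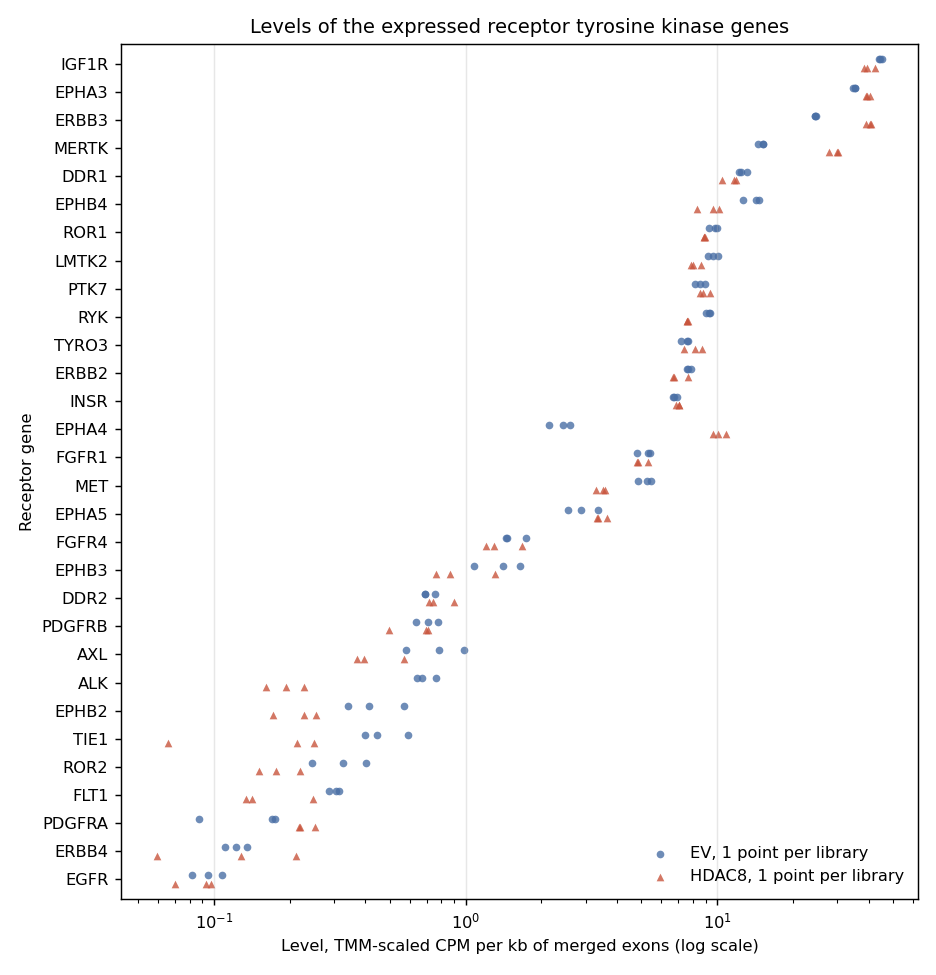
Levels of the 30 expressed receptor genes in TMM-scaled CPM per kb of merged exons (log axis), 1 circle for each EV library and 1 triangle for each HDAC8 library. IGF1R, EPHA3 and ERBB3 lie at the top near 40 CPM per kb in the HDAC8 libraries, EPHA4 lies 4.25-fold higher there, and EGFR, ERBB4 and PDGFRA are at the bottom.

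The comparison of the groups covered 33 receptor genes that passed the filter on low counts, namely the 30 expressed genes with FGFR2, FGFR3 and CSF1R. A call required an adjusted p below 0.05 together with a log2 difference of 0.58 or more. By this rule 3 receptor genes were higher in the HDAC8 libraries (EPHA4, MERTK and ERBB3), where 4.07% of all 16195 tested genes were higher. The 5 lower receptor genes were ALK, FGFR2, TIE1, EPHB2 and MET, where 3.45% of all tested genes were lower. FGFR2 entered the test only through its level in the EV libraries, where it is higher. TIE1 also needed the EV libraries to pass the filter. Neither therefore adds to a reading of that count. The adjusted p alone was passed by 4 higher and 9 lower receptor genes, against 11.1% and 11.7% of all tested genes. Over the tested receptor genes the log2 fold change was positive for 12 and negative for 21, with a median of -0.15, against a median of 0.0091 over all tested genes. The 19 receptor genes that were not tested had too few counts.

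**Figure D2:**
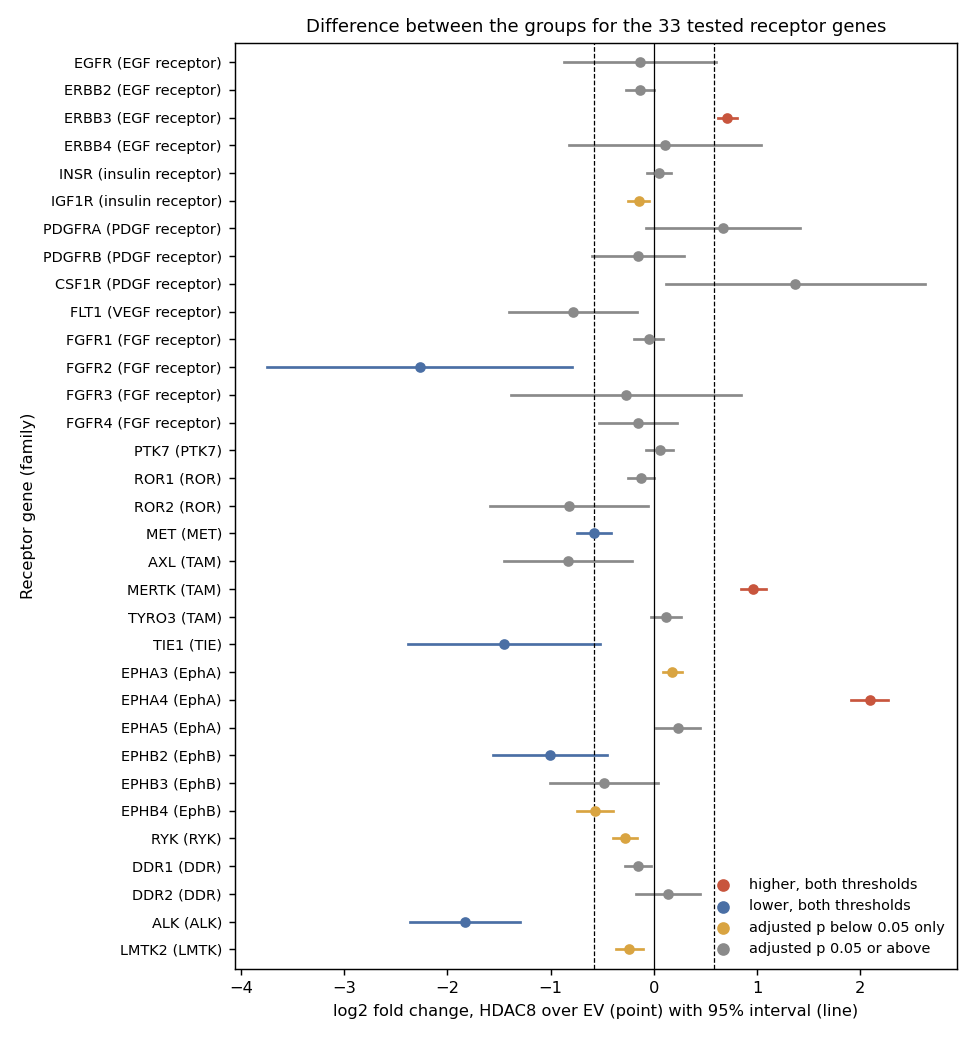
Log2 fold change of each of the 33 tested receptor genes, HDAC8 over EV libraries, with its 95% interval; dashed lines mark 0.58 in each direction. EPHA4, MERTK and ERBB3 lie right of the upper line, ALK, FGFR2, TIE1, EPHB2 and MET lie on or left of the lower line, and EPHB4 lies just inside it at -0.57.

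EPHA4 (ENSG00000116106) showed the strongest rise. EphA receptors bind ephrin-A ligands tethered to neighbouring cells and steer cell repulsion and adhesion, and EPHA4 also binds ephrin-B ligands. It had 422, 407 and 399 counts in the EV libraries and 2136, 1660 and 1765 in the HDAC8 libraries. Normalised for library size, these were 19.6, 18.4 and 16.2 CPM in the EV libraries and 72.4, 81.8 and 76.0 CPM in the HDAC8 libraries, so every HDAC8 library lay far above every EV library. The log2 fold change was 2.09 (SE 0.0823, adjusted p = 8.46e-09) by edgeR's quasi-likelihood test, a 4.25-fold difference. Of the 7 EphA genes listed, EPHA3, EPHA4 and EPHA5 were tested and all had positive log2 fold changes. EPHA3 rose slightly, from 231, 227 and 232 CPM to 258, 257 and 266 CPM, a log2 fold change of 0.18 (SE 0.0422, adjusted p = 0.0101) that stayed under the fold threshold. EPHA5 had 28.4, 32.9 and 25.2 CPM in the EV libraries and 36.0, 33.0 and 32.6 CPM in the HDAC8 libraries, with ranges that overlapped and a log2 fold change of 0.24 (adjusted p = 0.108). EPHA1 and EPHA8 reached at most 6 and 7 counts, and EPHA2 and EPHA7 were not detected.

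MERTK (ENSG00000153208) is 1 of the 3 TAM receptors, which clear apoptotic cells and damp inflammation. Its counts were 1359, 1334 and 1550 in the EV libraries and 3634, 2329 and 2901 in the HDAC8 libraries. On the CPM scale it had 63.0, 60.2 and 63.0 CPM in the EV libraries and 123, 115 and 125 CPM in the HDAC8 libraries, without overlap. It differed by a log2 fold change of 0.96 (SE 0.0556, adjusted p = 1.78e-07), which is 1.95-fold. The other TAM receptors did not pass both thresholds. TYRO3 had 80.3 ± 2.83 (SD, n = 3) CPM and 87.2 ± 7.19 (SD, n = 3) CPM, a log2 fold change of 0.12 with a 95% interval of -0.03 to 0.26 and an adjusted p of 0.246 in the same edgeR fit. AXL, which the study names as a gene of the neural crest stem cell-like melanoma state, had 64, 89 and 125 counts in the EV libraries and 56, 59 and 47 in the HDAC8 libraries. In CPM these were 2.97, 4.01 and 5.08 and 1.90, 2.91 and 2.02, so that the lowest EV library lay just above the highest HDAC8 library. The log2 fold change of AXL was -0.83 with a 95% interval of -1.45 to -0.21, and its adjusted p of 0.0546 from edgeR did not pass. DESeq2 gave AXL an adjusted p of 0.0326, and the values over all alternatives ran from 0.0310 to 0.231.

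ERBB3 (ENSG00000065361) was the most abundant receptor gene that rose past both thresholds. Its counts were 6209, 6325 and 7054 in the EV libraries and 13462, 9590 and 11126 in the HDAC8 libraries, or 288, 285 and 287 CPM and 456, 473 and 479 CPM. The EV libraries differed little among themselves, and all HDAC8 libraries were higher. By edgeR, ERBB3 had a log2 fold change of 0.71 (SE 0.0411, adjusted p = 1.78e-07), a 1.64-fold difference. ERBB2, the orphan receptor that pairs with ERBB3, had 81.2, 78.3 and 78.8 CPM in the EV libraries and 68.9, 69.7 and 78.6 CPM in the HDAC8 libraries. HDAC8 replicate 3 lay within the EV range, and the log2 fold change of ERBB2 was -0.13 with a 95% interval of -0.27 to 0.00443 and an adjusted p of 0.162 from edgeR. EGFR had 37, 29 and 37 counts in the EV libraries and 33, 30 and 36 in the HDAC8 libraries, which is 1.51 ± 0.204 (SD, n = 3) CPM and 1.38 ± 0.231 (SD, n = 3) CPM. EGFR's log2 fold change was -0.13 with a 95% interval of -0.87 to 0.61 and an adjusted p of 0.834, so at this depth the test left room for a change in either direction past the fold threshold. ERBB4 had 1.60 ± 0.160 (SD, n = 3) CPM and 1.73 ± 0.995 (SD, n = 3) CPM, with the HDAC8 libraries on both sides of the EV libraries and an interval of -0.82 to 1.04.

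**Figure D3:**
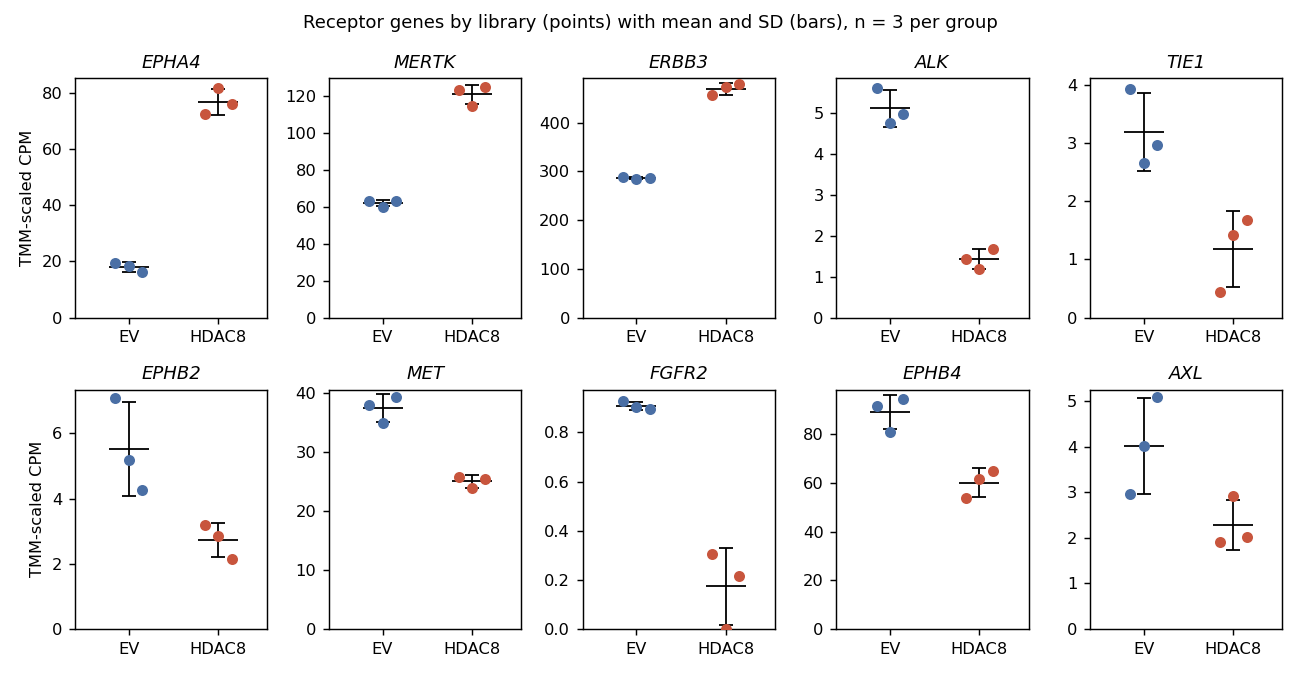
TMM-scaled CPM of 10 receptor genes in each library (points), with the mean and SD of 3 libraries per group (bars), on axes that start at 0. EPHA4, MERTK and ERBB3 are higher in all HDAC8 libraries, and the other 7 genes are lower there, with AXL's groups separated only between 2.97 and 2.91 CPM.

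The sequence before the start site is shown for 4 of these receptor genes, 2 that rose (MERTK and EPHA4) and 2 that fell (MET and TIE1), because they differ widely in base composition. Each line gives 250 bases of GRCh38.p14 upstream of the most upstream RefSeq start, 5′ to 3′ along the gene, and capitals mark a GC box (GGGCGG or its reverse complement CCGCCC), the motif bound by SP-family factors. The MERTK stretch lies at chr2:111898357-111898606, plus strand, EPHA4 at chr2:221574203-221574452, minus strand, MET at chr7:116671946-116672195, plus strand, and TIE1 at chr1:43300732-43300981, plus strand.
MERTK: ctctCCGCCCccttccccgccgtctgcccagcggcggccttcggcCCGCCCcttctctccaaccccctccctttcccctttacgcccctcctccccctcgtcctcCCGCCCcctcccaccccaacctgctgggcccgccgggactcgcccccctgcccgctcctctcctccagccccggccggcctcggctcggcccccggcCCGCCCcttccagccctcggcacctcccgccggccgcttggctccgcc
EPHA4: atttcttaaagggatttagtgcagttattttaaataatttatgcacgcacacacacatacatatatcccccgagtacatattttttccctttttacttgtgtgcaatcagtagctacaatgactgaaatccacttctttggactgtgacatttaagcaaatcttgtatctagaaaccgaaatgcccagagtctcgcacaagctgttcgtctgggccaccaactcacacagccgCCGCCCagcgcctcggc
MET: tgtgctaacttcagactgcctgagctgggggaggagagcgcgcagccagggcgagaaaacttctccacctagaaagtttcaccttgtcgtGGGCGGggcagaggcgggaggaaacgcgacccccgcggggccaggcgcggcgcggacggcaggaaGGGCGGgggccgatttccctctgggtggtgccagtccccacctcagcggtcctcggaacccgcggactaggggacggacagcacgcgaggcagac
TIE1: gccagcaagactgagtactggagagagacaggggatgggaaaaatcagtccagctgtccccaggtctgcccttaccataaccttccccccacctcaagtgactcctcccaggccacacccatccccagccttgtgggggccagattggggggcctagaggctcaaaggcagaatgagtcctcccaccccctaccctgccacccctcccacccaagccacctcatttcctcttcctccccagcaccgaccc
MERTK had 4 GC boxes, MET 2, EPHA4 1 and TIE1 0 in these stretches. CpG dinucleotides numbered 25, 24, 9 and 1 in the same order. Neither an AP-1 motif (TGANTCA) nor an E-box of the kind bound by MITF (CACGTG or CATGTG, on either strand) was present in these 4 stretches.

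Such windows of 250 bases were found in RefSeq for 48 of the 52 receptor genes. ERBB3, FGFR1, INSRR and FLT4 had no entry. Searched on both strands, with overlapping matches of one motif allowed, the GC box was present in 36 of the 48 windows (75%), against 42.6% of all 35116 promoters of the same length. It was present in 21 of the 28 matched genes that were expressed, in 11 of 13 at lower levels and in 4 of 7 that were not detected. The AP-1 motif was present in 4 of 48 (8.33%), namely CSF1R, ERBB2, PDGFRA and TYRO3, against 6.57% of all promoters. The E-box was present in 6 of 48 (12.5%) against 15.2% of all promoters. Those 6 were CSF1R, EPHA8, EPHB6, FLT3, ROS1 and TEK, and 0 of the 28 expressed genes held it. The median number of CpG was 20.5 in the receptor windows and 11 over all promoters. The receptor genes are all protein-coding, and the gene types behind the 35116 promoters are not given here. These shares therefore do not show a trait particular to receptor genes.

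ALK (ENSG00000171094), the receptor of the ALKAL ligands that is best known from the nervous system, was the lower receptor gene that kept its call under all 11 alternatives. It had 121, 105 and 122 counts in the EV libraries and 42, 24 and 39 in the HDAC8 libraries, or 5.61, 4.74 and 4.96 CPM and 1.42, 1.18 and 1.68 CPM. All HDAC8 libraries lay below all EV libraries. In edgeR's test the log2 fold change was -1.83 (SE 0.243, adjusted p = 0.000208), which leaves 0.282 of the EV level. On the opposite strand, 135 bases of its exons overlap CLIP4, which had a mean of 2287 counts, and whether the counting used strand is not given in the sources used here. CLIP4 had a log2 fold change of 0.02 with an interval of -0.09 to 0.14. Exons of EPHA4, ERBB2, FGFR1, EPHA5 and EPHB4 also share bases with genes on the other strand. For EPHA4 this is a non-coding RNA with a mean of 19.7 counts. LTK, the receptor most like ALK, had 8, 6 and 3 counts in the EV libraries and 39, 4 and 13 in the HDAC8 libraries and was not tested. The highest LTK value, in HDAC8 replicate 1, stood apart from the other libraries.

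FGFR2 (ENSG00000066468), a fibroblast growth factor receptor of epithelial tissues, had 20, 20 and 22 counts in the EV libraries and 9, 0 and 5 in the HDAC8 libraries. It reached the filter on low counts through the EV libraries alone. Its log2 fold change was -2.27 (SE 0.674, adjusted p = 0.0307) by edgeR. Leaving out any EV library, or HDAC8 replicate 2 or 3, raised its adjusted p to between 0.0611 and 0.110. FGFR1, the most abundant FGF receptor by CPM,  had 88.8 ± 5.53 (SD, n = 3) CPM and 85.8 ± 4.99 (SD, n = 3) CPM, a log2 fold change of -0.05 with a narrow interval of -0.19 to 0.09. FGFR4 had 7.43 ± 0.784 (SD, n = 3) CPM and 6.69 ± 1.20 (SD, n = 3) CPM with overlapping ranges and an interval of -0.53 to 0.22. FGFR3 reached at most 18 counts, with an interval of -1.38 to 0.84.

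TIE1 (ENSG00000066056), an orphan receptor that modulates angiopoietin signalling in endothelial cells, had 85, 59 and 73 counts in the EV libraries and 13, 29 and 39 in the HDAC8 libraries. In CPM these were 3.94, 2.66 and 2.97 and 0.441, 1.43 and 1.68, and HDAC8 replicate 1 was the lowest although it was the deepest library. By edgeR the log2 fold change was -1.45 (SE 0.426, adjusted p = 0.0290). The filter on low counts was met only with the EV libraries, since HDAC8 replicate 1 lay just under it. The adjusted p rose to between 0.0506 and 0.127 without EV replicate 1, 2 or 3 or HDAC8 replicate 2. Of the endothelial receptors, TEK and FLT4 had at most 4 counts and KDR at most 9. FLT1, a VEGF receptor, had 78, 85 and 97 counts in the EV libraries and 92, 36 and 39 in the HDAC8 libraries, and its log2 fold change was -0.78 with an interval of -1.40 to -0.16 and an adjusted p of 0.0708. Without HDAC8 replicate 1 the adjusted p of FLT1 was 0.0112. The 6 endothelial markers summed to 17.4 to 18.4 CPM in the EV libraries and 22.7 to 25.6 CPM in the HDAC8 libraries, mostly EGFL7. CDH5, which defines endothelial cells, had at most 1 count and PECAM1 at most 17, with the 17 in HDAC8 replicate 1.

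EPHB2 (ENSG00000133216) and EPHB4 are receptors of ephrin-B ligands. EPHB2 had 153, 115 and 105 counts in the EV libraries and 94, 58 and 50 in the HDAC8 libraries, or 7.09, 5.19 and 4.27 CPM and 3.19, 2.86 and 2.15 CPM. The groups did not overlap, and EV replicate 1 was the highest. This gave a log2 fold change of -1.01 (SE 0.251, adjusted p = 0.0126) by edgeR, and the adjusted p was 0.0794 without EV replicate 1. EPHB4 had 91.8, 81.1 and 94.6 CPM in the EV libraries and 53.7, 61.7 and 65.2 CPM in the HDAC8 libraries, also without overlap. Its log2 fold change of -0.57 (SE 0.0811, adjusted p = 0.000340) lay just under the fold threshold. EPHB3 had 6.22 ± 1.28 (SD, n = 3) CPM and 4.44 ± 1.32 (SD, n = 3) CPM with ranges that overlapped and an adjusted p of 0.183, which was 0.0338 without HDAC8 replicate 3. All 3 tested EphB genes had negative log2 fold changes, whereas all 3 tested EphA genes had positive ones. Over all tested genes 8330 were positive and 7865 negative, so signs in 3 genes each do not set the families apart. EPHB1 and EPHB6 reached 18 and 13 counts at most and were not tested.

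MET (ENSG00000105976), the receptor of hepatocyte growth factor, had 819, 773 and 968 counts in the EV libraries and 761, 483 and 588 in the HDAC8 libraries. In CPM these were 38.0, 34.9 and 39.3 CPM in the EV libraries and 25.8, 23.8 and 25.3 CPM in the HDAC8 libraries. Each HDAC8 library lay below each EV library, and the spread within the groups was small. With a log2 fold change of -0.58 (SE 0.0760, adjusted p = 0.000182) by edgeR, MET stood at 0.668 of the EV level, only just past the fold threshold. It dropped under that threshold, with a log2 fold change between -0.57 and -0.54, after upper-quartile normalization and without EV replicate 1, EV replicate 3 or HDAC8 replicate 2, while the adjusted p stayed at or below 0.00218. MST1R, the related receptor of macrophage-stimulating protein, had 4, 3 and 3 counts in the EV libraries and 1, 0 and 0 in the HDAC8 libraries.

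In 3 more receptor genes, small differences passed the adjusted p alone. IGF1R had 631, 610.0 and 615 CPM in the EV libraries and 534, 549.9 and 593 CPM in the HDAC8 libraries, and its log2 fold change of -0.15 (SE 0.0468, adjusted p = 0.0416) passed the adjusted p only. The adjusted p of IGF1R was 0.0530 after upper-quartile normalization and 0.0644 to 0.143 when any single library other than HDAC8 replicate 3 was left out. RYK, a WNT receptor with an inactive kinase domain, had 75.8, 76.7 and 73.9 CPM in the EV libraries and 61.7, 62.2 and 62.5 CPM in the HDAC8 libraries. The RYK groups were well separated, at a log2 fold change of -0.28 (SE 0.0530, adjusted p = 0.00242). LMTK2, a membrane kinase of the lemur family that acts in endosomal transport, had 88.2, 92.0 and 84.2 CPM in the EV libraries and 71.9, 73.4 and 78.8 CPM in the HDAC8 libraries and a log2 fold change of -0.24 (SE 0.0596, adjusted p = 0.0128). Without EV replicate 1 or 2 the adjusted p of LMTK2 was 0.0508 or 0.0579.

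The remaining expressed receptor genes did not pass the adjusted p in edgeR. INSR, the insulin receptor, and PTK7, a catalytically inactive receptor of planar cell polarity, had narrow intervals of the log2 fold change, -0.07 to 0.16 and -0.07 to 0.19. ROR1, a WNT5A receptor, had 65.2 ± 2.48 (SD, n = 3) CPM and 59.9 ± 0.351 (SD, n = 3) CPM with an interval of -0.25 to 0.000947. ROR2 was far lower, at 51, 32 and 47 counts and 38, 18 and 24 counts, with an interval of -1.59 to -0.05 and an adjusted p of 0.122. The collagen receptor DDR1 had an interval of -0.28 to -0.02 and an adjusted p of 0.0885, and DDR2 one of -0.17 to 0.45. Of the PDGF receptor family, PDGFRA had 18, 36 and 41 counts in the EV libraries and 62, 42 and 56 in the HDAC8 libraries (interval -0.08 to 1.41) and PDGFRB had 5.04 ± 0.505 (SD, n = 3) CPM and 4.51 ± 0.834 (SD, n = 3) CPM (interval -0.60 to 0.29). CSF1R, the macrophage colony-stimulating factor receptor, had 10, 6 and 4 counts in the EV libraries and 35, 10 and 14 in the HDAC8 libraries and passed the low-count filter through the HDAC8 libraries alone. Its adjusted p was 0.115. The 7 blood and myeloid markers summed to 28.4 to 29.4 CPM in the EV libraries and 24.96 to 29.72 CPM in the HDAC8 libraries. Of these, 5 (PTPRC and CD14 among them) had at most 3 counts, while CD68 had 556 to 803 counts and LYZ 21 to 55. Their part in the result was not tested.

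Among the receptor genes that were not detected, KIT is known for its role in the melanocyte lineage. It had 0, 0 and 3 counts in the EV libraries and 0, 1 and 0 in the HDAC8 libraries. NTRK3, MUSK and ROS1 had 0 counts in every library, which allows up to 0.102 to 0.148 CPM at these depths. INSRR, FLT3, EPHA2 and EPHA7 had at most 3 counts. RET, the receptor of GDNF-family ligands, had 13, 7 and 20 counts in the EV libraries and 1, 4 and 8 in the HDAC8 libraries, and NTRK2, the receptor of BDNF, had 4, 6 and 12 and 1, 7 and 7. Neither was tested.

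The ligands of these receptors moved in both directions. Of 62 ligand genes listed, 38 were tested, 7 were higher and 6 were lower past both thresholds (4.07% and 3.45% over all tested genes), and the median log2 fold change of those tested was 0.051. FGF1 rose from 2.30 ± 0.388 (SD, n = 3) CPM to 7.65 ± 2.19 (SD, n = 3) CPM (log2 fold change 1.72, adjusted p = 0.000377), while FGF2 fell from 16.2, 13.8 and 14.1 CPM to 7.25, 7.30 and 6.46 CPM (log2 fold change -1.07, adjusted p = 6.29e-05), both by edgeR. Of the PDGF ligands, PDGFD rose to 11.2 ± 1.39 (SD, n = 3) CPM from 3.72 ± 0.337 (SD, n = 3) CPM, a log2 fold change of 1.59 (adjusted p = 2.13e-05), and PDGFC had a log2 fold change of 1.28 (adjusted p = 0.00930). KITLG, whose receptor KIT was not detected, rose with a log2 fold change of 0.64 (adjusted p = 0.00270). CSF1, the ligand of CSF1R, fell with a log2 fold change of -0.82 (adjusted p = 0.00472). The VEGF-receptor ligands parted, with VEGFC at 1.17 (adjusted p = 0.0395) and PGF at -0.70 (adjusted p = 0.00162). BDNF had the largest ligand difference, falling from 5.84, 9.07 and 6.79 CPM to 1.29, 1.28 and 0.861 CPM (log2 fold change -2.65, adjusted p = 1.86e-05). EGF fell with a log2 fold change of -0.72 (adjusted p = 8.74e-05).

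**Figure D4:**
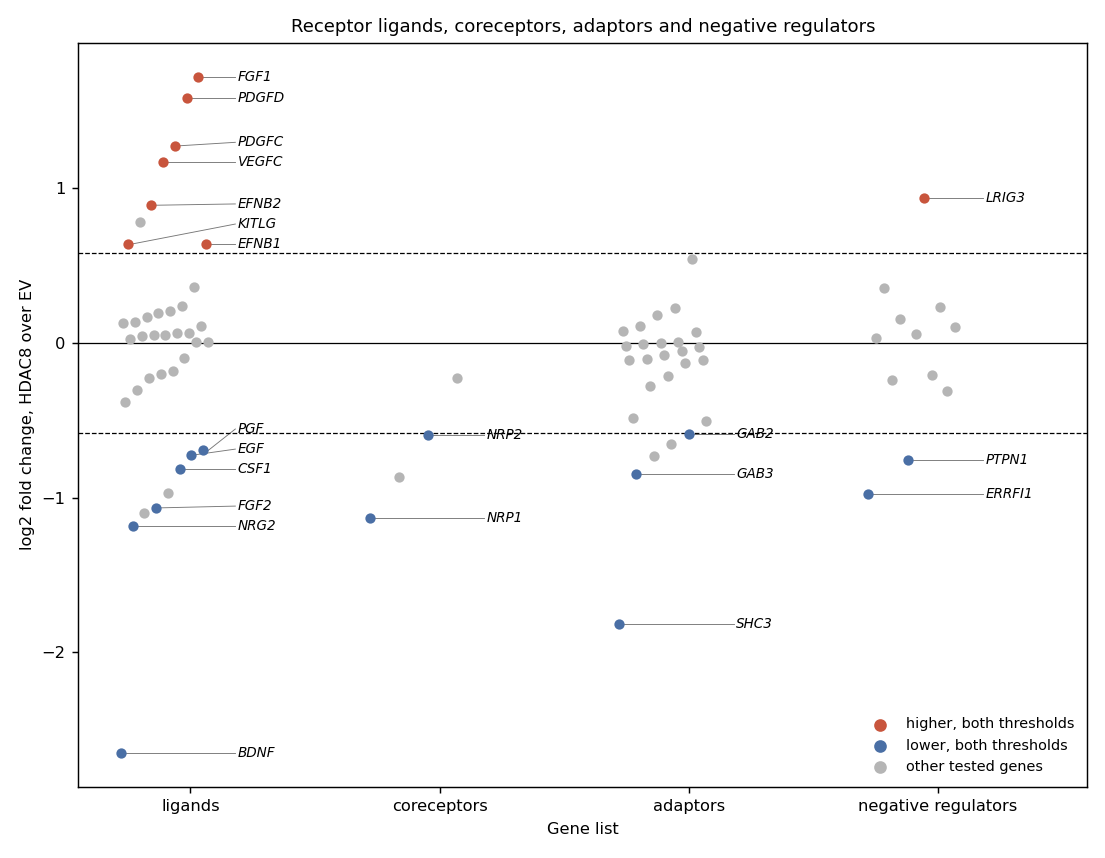
Log2 fold change, HDAC8 over EV libraries, of each tested ligand, coreceptor, adaptor and negative regulator gene (1 point per gene), with the genes past both thresholds named; dashed lines mark 0.58 in each direction. Ligands spread from BDNF at -2.65 to FGF1 at 1.72. The 2 coreceptor and 3 adaptor genes past both thresholds are lower, beside 4.07% higher and 3.45% lower over all tested genes.

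For the 8 receptor genes past both thresholds, the ligands were as follows. Of the neuregulins, NRG1 and NRG2 bind ERBB3, and NRG3 binds ERBB4. NRG1 had at most 3 counts, NRG2 fell from 11.1 ± 0.939 (SD, n = 3) CPM to 4.89 ± 0.572 (SD, n = 3) CPM (log2 fold change -1.19, adjusted p = 0.000132), and NRG3 had 18.2 ± 1.35 (SD, n = 3) CPM and 19.7 ± 2.96 (SD, n = 3) CPM. Of the MERTK ligands, PROS1 had 60.5, 58.2 and 57.6 CPM in the EV libraries and 67.9, 68.6 and 61.5 CPM in the HDAC8 libraries (adjusted p = 0.0765 from edgeR), and GAS6 had at most 22 counts. EFNA5 was the most abundant ephrin-A at 70.1 ± 2.35 (SD, n = 3) CPM and 70.5 ± 2.44 (SD, n = 3) CPM. Of the ephrin-B ligands, EFNB1 was at a log2 fold change of 0.64 (adjusted p = 0.0374) and EFNB2 at 0.89 (adjusted p = 0.0160), whereas EFNB3, the most abundant of them, had -0.38 (adjusted p = 0.00288). EFNB1 lost its call whichever library was left out (adjusted p 0.0589 to 0.111), and EFNB2 without EV replicate 1, EV replicate 2 or HDAC8 replicate 1 (0.0695 to 0.0806). HGF, the MET ligand, had 11 counts in HDAC8 replicate 1 and 0 elsewhere. ALKAL1 had 0 counts and ALKAL2 at most 7. ANGPT2 had 17, 36 and 26 counts in the EV libraries and 36, 15 and 58 in the HDAC8 libraries, and ANGPT1 and ANGPT4 at most 3.

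Coreceptors, which help receptors hold their ligands, were represented by 9 genes, of which 4 were tested. Past both thresholds 0 were higher and 2 lower, beside 4.07% higher and 3.45% lower over all tested genes. NRP1 fell from 19.9, 21.5 and 23.5 CPM to 10.4, 10.4 and 8.82 CPM, a log2 fold change of -1.13 (adjusted p = 1.37e-05). NRP2, which is more abundant, fell from 218 ± 3.62 (SD, n = 3) CPM to 144 ± 4.39 (SD, n = 3) CPM, a log2 fold change of -0.60 (adjusted p = 2.19e-06). Both neuropilins bind VEGF-family ligands. No coreceptor was higher by edgeR, by DESeq2 or at an unadjusted p below 0.05 with the same fold. GFRA1, named after its values were seen, had 1, 0 and 0 counts in the EV libraries and 20, 11 and 6 in the HDAC8 libraries. It was tested only when no filter on low counts was used or when any EV library or HDAC8 replicate 3 was left out. It was then higher. With a library left out, GFRA1 entered the test only through the HDAC8 libraries, where it is higher. Those calls therefore add nothing to a reading of the coreceptor count.

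Of 32 adaptor genes, 26 were tested, 0 were higher by edgeR, by DESeq2 or at an unadjusted p below 0.05 with the same fold, and 3 were lower (4.07% higher and 3.45% lower over all tested genes). SHC3 fell from 10.1, 8.21 and 8.33 CPM to 2.03, 3.25 and 2.32 CPM, a log2 fold change of -1.82 (adjusted p = 7.05e-05). GAB2, the most abundant of the 3, fell from 397 ± 11.4 (SD, n = 3) CPM to 264 ± 4.61 (SD, n = 3) CPM, at -0.59 (adjusted p = 1.30e-06), and GAB3 had -0.84 (adjusted p = 0.0439). The insulin receptor substrates, also named after their values were seen, moved apart on the adjusted p alone, with IRS1 at 0.55 (adjusted p = 0.000439) and IRS2 at -0.50 (adjusted p = 6.49e-05). The list of 14 negative regulators had 12 tested, 1 higher and 2 lower, beside the same shares of 4.07% and 3.45% over all tested genes. LRIG3 rose from 14.0 ± 0.888 (SD, n = 3) CPM to 26.9 ± 0.960 (SD, n = 3) CPM, a log2 fold change of 0.94 (adjusted p = 9.56e-06). Its effect on receptor signalling was not tested. ERRFI1, an inhibitor of the EGF receptor family, fell from 72.3 ± 5.28 (SD, n = 3) CPM to 36.7 ± 1.02 (SD, n = 3) CPM, at -0.98 (adjusted p = 9.62e-07). PTPN1, a phosphatase of the insulin receptor, fell from 306 ± 12.3 (SD, n = 3) CPM to 181 ± 6.08 (SD, n = 3) CPM, at -0.75 (adjusted p = 4.57e-07). Adjusted p-values of these lists are from edgeR's quasi-likelihood test over all 16195 genes.

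The tested genes on either side of each changed receptor gene, 10 on each side, were set beside it. ERBB3 (chromosome 12, 56076799 to 56103505 on GRCh38) had a neighbour median log2 fold change of 0.16, and EPHA4 (chromosome 2, 221418027 to 221574202) one of -0.18. Those of MERTK (chromosome 2, 111898607 to 112029561), ALK (chromosome 2, 29192774 to 29921586), TIE1 (chromosome 1, 43300982 to 43323108), EPHB2 (chromosome 1, 22710839 to 22921500), MET (chromosome 7, 116672196 to 116798377) and FGFR2 (chromosome 10, 121478332 to 121598458) lay between -0.10 and 0.12. EPHB4 (chromosome 7, 100802565 to 100827523) had a neighbour median of -0.38 beside its own -0.57. Of the 20 neighbours each, 3 passed both thresholds downwards around EPHB4 and 2 around EPHB2, and 3 passed upwards around FGFR2 and 1 around ALK, against 3.45% lower and 4.07% higher over all tested genes. Those shares include tested genes under 1 CPM, which the neighbours do not. Around the receptor genes past the adjusted p alone, LMTK2 had 3 lower neighbours and a median of -0.12, RYK 2 higher and -0.16, EPHA3 5 higher and -0.03, and IGF1R 2 in each direction and -0.03. SLC12A9, the neighbour whose exons share 69 bases with EPHB4 on the opposite strand, had 32.3 ± 1.11 (SD, n = 3) CPM and 22.6 ± 2.94 (SD, n = 3) CPM, a log2 fold change of -0.51 (adjusted p = 0.00207).

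**Figure D5:**
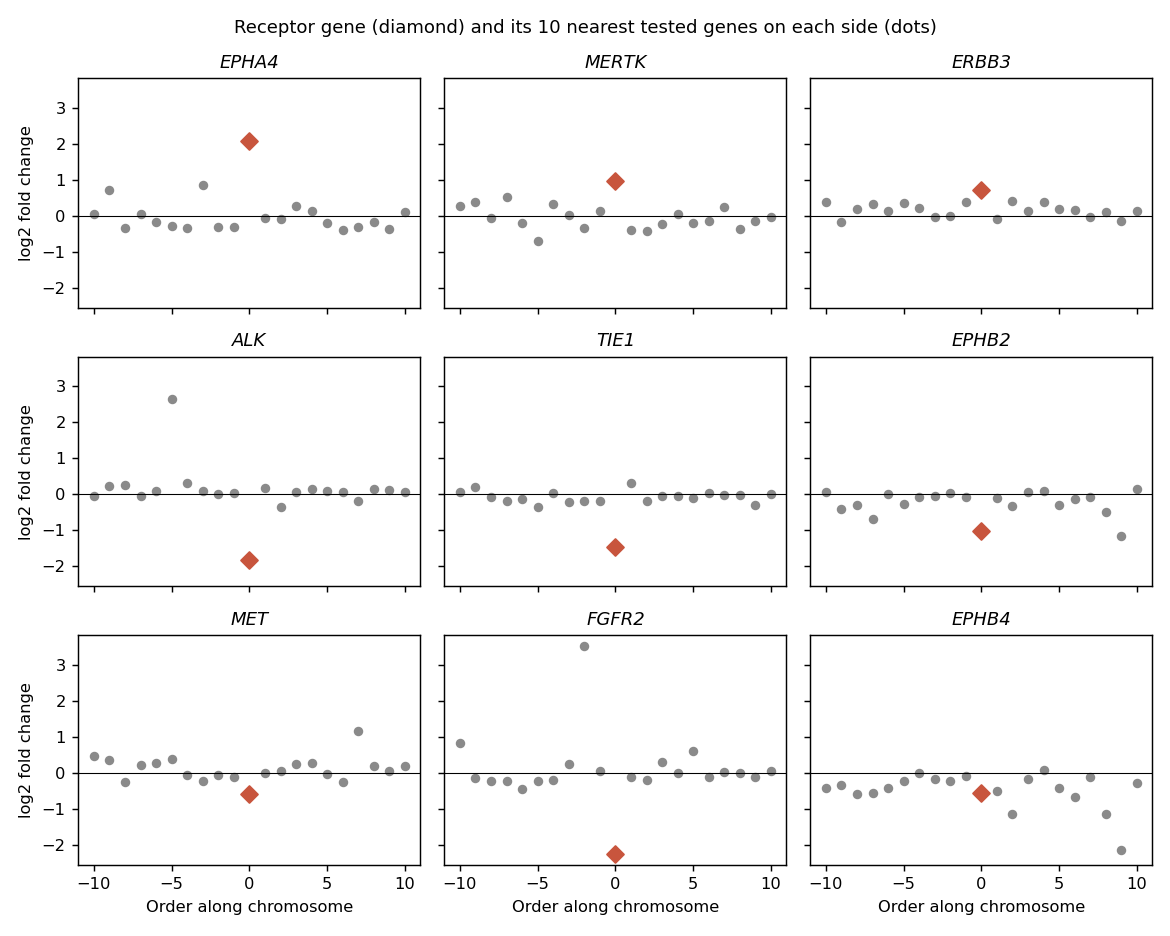
Log2 fold change, HDAC8 over EV libraries, of 9 receptor genes (diamonds) and their 10 nearest tested genes on each side (dots), in order along the chromosome rather than by distance. The neighbour medians lie between -0.18 and 0.16 for EPHA4, MERTK, ERBB3, ALK, TIE1, EPHB2, MET and FGFR2, with single neighbours of FGFR2 and ALK far above 0, and at -0.38 for EPHB4.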

How the data were processed

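Estimated counts per Ensembl gene were deposited by the authors for 3 EV and 3 HDAC8 libraries without normalization. According to the Methods and the submitters' processing notes, reads were trimmed with Trimmomatic, aligned with STAR and quantified with RSEM on GRCh38. The annotation and whether strand was used in counting are not given in the sources used here, and the labels and the Methods name different RNA and library kits. RSEM divides reads between similar genes, and 5 of the 52 receptor genes held values that were not whole. A second deposited table holds the authors' own log2 fold change, p-value and 2 columns of group values, and was not used here.

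Counts were rounded, and 16195 genes passed filterByExpr. HDAC8 was compared with EV by TMM normalization, glmQLFit and glmQLFTest of edgeR 4.0.16 under R 4.3.3, without a block. Benjamini-Hochberg adjustment ran over all of them, with thresholds of 0.05 and, for the absolute log2 fold change, 0.58. Intervals are 95% intervals of the log2 fold change. Not detected means at most 3 counts in every library. Such floors cover counting error only, since no molecular identifiers are named. Lengths and positions are from GENCODE 44 (56558 identifiers matched), and promoters from RefSeq. All 52 receptor genes could be named. Values in every library were given for those past a threshold, the 5 highest levels, EGFR and AXL. From the partner lists, genes past both thresholds (at most 8 per list by absolute log2 fold change) and the ligands of called receptors were named. Others were chosen after their values were seen. The members and lists were chosen with earlier results of these data known. Alternatives were DESeq2 1.42.0, upper-quartile normalization, other filters and thresholds, a replicate block and leaving out each library. The scripts were tested on simulated data.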

Additional observations from a re-analysis of the deposited data

How the results depend on the processing

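EPHA4, MERTK, ERBB3 and ALK kept their calls under all 11 alternatives run for each gene, and 22 of the 33 tested receptor genes kept direction and side throughout. The count of higher receptor genes was 3 in every fit with a library left out and 1 (EPHA4) when the fold threshold was raised to 1 on the log2 scale. Lower receptor genes numbered 9 with no fold threshold (11.7% of all tested genes were lower there), 8 at an unadjusted p, and 2 to 6 with a library left out. Shares over all genes at the unadjusted p or with a library left out are not given here, so those counts have no base for comparison. The lower receptor genes were ALK and AXL without EV replicate 1, and ALK and EPHB2 without EV replicate 3. EPHB4 passed the fold threshold, at -0.64 to -0.60, without EV replicate 2 or HDAC8 replicate 2 or 3. AXL passed without EV replicate 1 or HDAC8 replicate 2, under DESeq2 and under both other filters. The log2 fold change changed sign for EGFR (-0.23 to 0.00185 with a library left out, above 0 without HDAC8 replicate 1), FGFR3 (0.032 without EV replicate 1) and ERBB4 (-0.38 to 0.45 with a library left out, below 0 without HDAC8 replicate 2), none of them called. The cause was not tested. Over all genes, 1790 were higher and 1891 lower with no fold threshold, and 391 and 309 with that of 1. The number of expressed receptor genes was 35 at 0.5 CPM, 23 at 5 CPM, 26 at 1 TPM-like unit and 30 with any library left out.

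Alternatives for the partner lists were added after seeing the data. With the fold threshold of 1, ligands numbered 4 higher and 3 lower, coreceptors 1 lower, adaptors 1 lower and negative regulators 0 in either direction. The counts over all genes at that threshold stand in the paragraph above. With no fold threshold, adaptors numbered 1 higher and 6 lower, and negative regulators 3 higher and 4 lower. Over all tested genes 11.1% were higher and 11.7% lower at that setting. With a library left out, higher ligands ranged from 4 to 5, higher coreceptors from 0 to 1 and lower coreceptors from 1 to 2. Higher adaptors then ranged from 0 to 1 and lower adaptors from 1 to 3. The higher coreceptor was GFRA1, also higher with no filter on low counts. With a library left out, GFRA1 entered the test only through the HDAC8 libraries, where it is higher. Shares over all genes in the fits with a library left out are not given here, so these counts have no base for comparison. VEGFC lost its call without any library except EV replicate 1 (adjusted p 0.0531 to 0.102), EFNB1 without any single library (0.0589 to 0.111) and GAB3 without any except EV replicate 2 (0.057 to 0.165). Over all 11 alternatives, EFNB1 kept its call in 3 and GAB3 in 4. EFNB2 lost its call without EV replicate 1, EV replicate 2 or HDAC8 replicate 1 (0.0695 to 0.0806). KITLG (0.58, without HDAC8 replicate 2), NRP2 (-0.58, without HDAC8 replicate 1) and GAB2 (-0.57, without EV replicate 1) fell just under the fold threshold.

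The replicate numbers gave no sign of a pairing of the libraries. Deviations of same-numbered libraries from their group means correlated at -0.0418, -0.107 and -0.0835, and each library correlated better with another number. Within a group of 3 libraries such deviations are tied to each other, so these values cannot show that no pairing or shared batch exists. With the replicate number as a block, 3 receptor genes were lower (ALK, EPHB2 and MET) and 3 higher, the adjusted p was 0.0504 for TIE1, 0.0525 for FGFR2 and 0.088 for IGF1R, and ERBB4 had a log2 fold change of -0.029. Depth limits the receptor genes with few counts: the EGFR interval spans a change past 0.58 in both directions, and 19 of 52 receptor genes could not be tested.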
